A study of Homo sapiens with 24 samples.

Results

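The earliest transcripts of a lymphoma cell line to respond to an EZH2 inhibitor were read from 6 of the 24 arrays of a time course, 3 from cells given the inhibitor for 1 day and 3 from cells given its solvent, DMSO, for the same time. The cells were KARPAS-422, an established human line of diffuse large B-cell lymphoma, and the label of every array gives its EZH2 genotype as Y641N, a change in the catalytic domain, so that treated and control cells both carry it. The inhibitor, whose chemical name is not given in the sources used here, was used at 5 uM, and the 3 replicates of a group are named biological replicates. The remaining 18 arrays hold the same pair of treatments at days 2, 3 and 6. All 19775 genes that could be named from 1 probe set entered the comparison, each read by the probe set whose mean over all 24 arrays was highest. Every result comes from 1 cell line. P-values of the main fit measure only the spread between replicate arrays, estimated over all 24 arrays and not from the 6 alone.

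EZH2 is the enzyme of Polycomb repressive complex 2 (PRC2), which attaches methyl groups to a lysine in the tail of histone H3 and so marks genes for silencing. In germinal centre B cells this mark holds back genes of cell cycle exit and differentiation, and the mutated enzyme of some lymphomas makes more of its most methylated form. Once the enzyme is blocked, the mark is lost gradually as chromatin is copied and histones are exchanged, and transcription of silenced genes can follow.

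Differences below are inhibitor minus DMSO on the log2 scale, given with the standard error of a limma fit (SE, n = 3 arrays per group), so that a difference of 1 is a 2-fold change. A gene was called, and is said to have risen or fallen, when its p adjusted over all 19775 genes was under 0.05. The medians of the 6 arrays lay between 4.984 and 5.0, and the number of arrays limits the precision. Markers fixed for the cell type were those of a B cell: the 6 B lineage markers had group means of 7.89 to 12.22 in DMSO, and 3 of 4 germinal centre markers exceeded a level of 6. Of 5 T and NK markers, CD3G (10.85) and CD3D (7.12) were bright while CD2 and NKG7, at 3.72 and 3.87, were dim, and DCN, a matrix proteoglycan in the stromal list, stood at 12.58 over the 6 arrays. Of the 23 T and NK, 22 myeloid and 24 stromal list members limma called 0, with 1 T and NK and 1 stromal gene lower at an unadjusted p under 0.05. The summed linear levels overlapped between treatments (2226.5 to 3116.8 in DMSO and 2124.8 to 3495.6 with inhibitor for T and NK markers, 469.2 to 517.4 and 475.3 to 492.3 for myeloid, 6217.9 to 7410.8 and 6077.3 to 8238.4 for stromal). Bright members such as CD3G and DCN weigh most in the T and NK and stromal sums, which therefore say little of the dim members. In RNA from whole cultures, more transcript per cell and more cells that hold it cannot be told apart.

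After 1 day the response was small and almost wholly upward. Limma called 96 genes, 0.485% of those tested, of which 94 had risen (0.475%) and 2 had fallen (0.0101%). The 94 differences ran from 0.36 to 1.44 with a median of 0.69, against a median of -0.01 over all genes, and 12 genes rose at least 2-fold. Over all genes the directions were more even: 46.1% of all genes had a difference above 0, and the 3 inhibitor arrays lay entirely above the 3 DMSO arrays in 1058 genes (5.35%) and entirely below in 1054 (5.33%). All 94 risers and the 2 genes that fell had separated groups. The call and the separation rest on the same 6 arrays, so a lack of overlap adds no support for a single called gene. Among genes with such separated groups and a difference of at least 0.5, 176 were higher and 2 lower, and at a difference of at least 1 there were 17 higher and 0 lower. At an unadjusted p under 0.05, limma found 1197 genes (6.05%), 749 of them higher (3.79%) and 448 lower (2.27%).

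Blocking on the replicate number raised the count to 246 (1.24% of genes), of which 243 were higher (1.23%) and 3 lower (0.0152%). Blocking on it within each day raised it to 301 (1.52%), with 294 higher (1.49%) and 7 lower (0.0354%). Of the 96 genes, 96 stayed called with the first block and 94 with the second. A fit limited to the 6 arrays of day 1 called 46 genes, and 38 of the 96 stayed called in it. Leaving out an array lowered the count. It was 52, 45 and 87 without DMSO replicates 1, 2 and 3, and 48, 44 and 66 of these were among the 96. Without inhibitor replicates 1, 2 and 3 it was 57, 32 and 81, with 51, 32 and 65 among the 96. Each such fit has a smaller group and so less power, and a lost call need not point to the array left out. There were 24 genes called in each of the 6 fits that left out 1 array, and 5 (ITGB8-AS1, KHDRBS3, MYO6, NOTCH2 and PTPN12) called in 0 of them. The differences of all 96 genes kept their sign in each of those 6 fits and in each other setting in which they were tested. In groups that do not overlap, leaving out an array cannot change a sign, and the blocks leave the differences as they are. The kept signs in those fits therefore add no support.

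**Figure D1:**
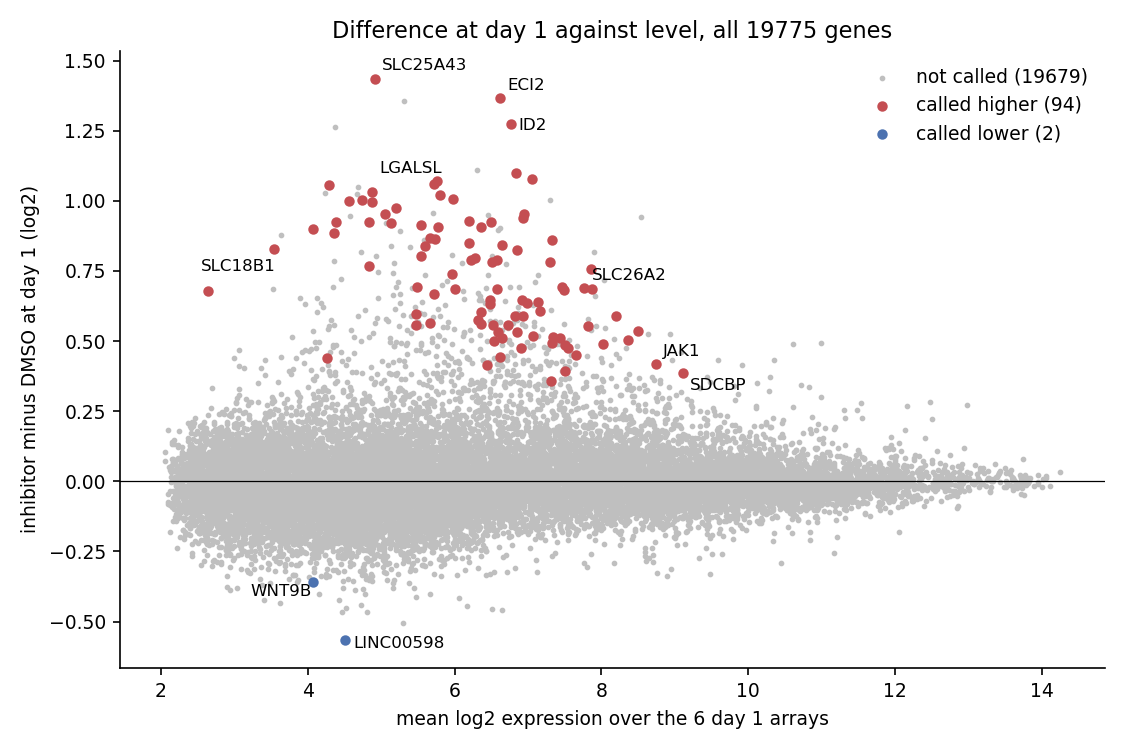
Difference between inhibitor and DMSO at day 1 (log2, vertical axis) against the mean log2 level over the 6 arrays (horizontal axis) for all 19775 genes, with the 94 genes called higher in red, the 2 called lower in blue and the others in grey. The red points reach 1.44 (SLC25A43) and lie at DMSO levels of 2.30 to 8.91, while the blue points, WNT9B and LINC00598, lie at -0.36 and -0.56.

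The genes that rose were of middling level. Their DMSO means ran from 2.30 to 8.91 with a median of 6.16, against 5.80 for all genes. Those at least 2-fold higher began between 3.76 and 6.52. Over all levels 0.475% of genes had risen. Below a level of 5 lay 17 risers among 7420 genes, between 5 and 6 lay 23 among 2983, and between 6 and 7 lay 34 among 1988. Above a level of 7 lay 20 risers among 7384 genes, and the brightest risers were SDCBP, a scaffold of membrane proteins, at 8.91 and the cytokine receptor kinase JAK1 at 8.53.

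The largest rise was that of SLC25A43, a member of the family of mitochondrial inner membrane carriers. Its 3 DMSO arrays read 4.13, 4.27 and 4.19 and its 3 inhibitor arrays 5.72, 5.53 and 5.65. The arrays of each group lay within 0.2 of each other and the groups were far apart, a 2.7-fold rise (1.44 ± 0.11, adjusted p = 1.91e-07). ECI2, an isomerase that lets unsaturated fatty acids enter beta-oxidation, read 5.56, 5.89 and 6.37 in DMSO and 7.12, 7.42 and 7.38 with inhibitor. Its DMSO arrays were spread more widely than its inhibitor arrays, without overlap, and it rose 2.58-fold (1.37 ± 0.19, adjusted p = 0.000904). HEBP1, a heme-binding protein, read 4.38, 4.30 and 4.45 against 5.08, 5.81 and 5.23, inhibitor replicate 2 being the highest (0.99 ± 0.15, adjusted p = 0.0016). All 3 were called in each fit that left out 1 array. In the lists that hold SLC25A43 and ECI2, 1 of 45 SLC25 carriers (median -0.02) and 1 of 40 fatty acid oxidation genes (median 0.04) were called. Of all genes, 0.485% were called.

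Some regulators of transcription and RNA were among the leading genes. Limma called 1 of 7 ID proteins and E protein partners (median 0.14) and 1 of 466 numbered zinc finger genes (0.00). It called 0 of 47 histone methyltransferases and demethylases outside PRC2 (0.02), where 0.485% of all genes were called. ID2, which binds E proteins and keeps them from DNA, read 5.67, 6.35 and 6.39 in DMSO and 7.19, 7.22 and 7.82 with inhibitor. The groups did not overlap, but DMSO replicate 1 was well below the others and inhibitor replicate 3 well above, and the call (1.27 ± 0.26, adjusted p = 0.0256) was kept without DMSO replicate 3 (0.035) and lost without DMSO replicates 1 and 2 (0.188 and 0.0563) and inhibitor replicates 1, 2 and 3 (0.0519, 0.0785 and 0.148). LBH, a transcriptional cofactor first known from limb bud and heart, read 3.90, 4.38 and 3.89 against 5.17, 4.83 and 5.16, so that DMSO replicate 2 and inhibitor replicate 2 came nearest to each other (1.00 ± 0.19, adjusted p = 0.0136). The call was lost without DMSO replicates 1 and 3 (adjusted p = 0.0891 and 0.0603) and without inhibitor replicates 1 and 3 (0.069 and 0.054). AFF1, a scaffold of the super elongation complex of RNA polymerase II, read 4.40, 4.44 and 4.87 against 5.37, 5.66 and 5.54, with groups that did not overlap (0.95 ± 0.19, adjusted p = 0.0168), and lost its call without DMSO replicates 1 and 2 (0.105 and 0.0985) and inhibitor replicates 2 and 3 (0.124 and 0.054). AGO4, an argonaute protein of small RNA silencing, rose by 0.86 ± 0.12. YPEL2, not counted among these regulators, rose by 0.95 ± 0.13, and both genes were called in all 6 fits without 1 array.

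VAT1L, EEIG2 and ABHD17C also rose at least 2-fold. VAT1L, a protein related to a synaptic vesicle membrane protein, read 6.45, 6.08 and 6.34 in DMSO and 7.71, 7.33 and 7.13 with inhibitor, the latter spread more widely but clear of the DMSO arrays (1.10 ± 0.21, adjusted p = 0.0138). Its call was lost without DMSO replicate 2 (0.0964) and inhibitor replicates 1 and 2 (0.0888 and 0.0638). EEIG2 read 5.06, 5.45 and 5.34 against 6.28, 6.60 and 6.04, without overlap (1.02 ± 0.20, adjusted p = 0.0176), and lost its call without DMSO replicate 1 (0.117) and inhibitor replicates 1 and 2 (0.0638 and 0.166). ABHD17C, which removes palmitate from proteins, read 5.44, 5.61 and 5.38 against 6.52, 6.64 and 6.30, with narrow groups (1.00 ± 0.18, adjusted p = 0.00841), and lost it without inhibitor replicate 2 (0.0785). CCSAP, a protein of centrioles and the spindle, rose by less than 2-fold, by 0.92 ± 0.18 and kept its call in 1 of 6 such fits (without inhibitor replicate 3, adjusted p = 0.0193, and 0.0556 to 0.192 in the others).

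**Figure D2:**
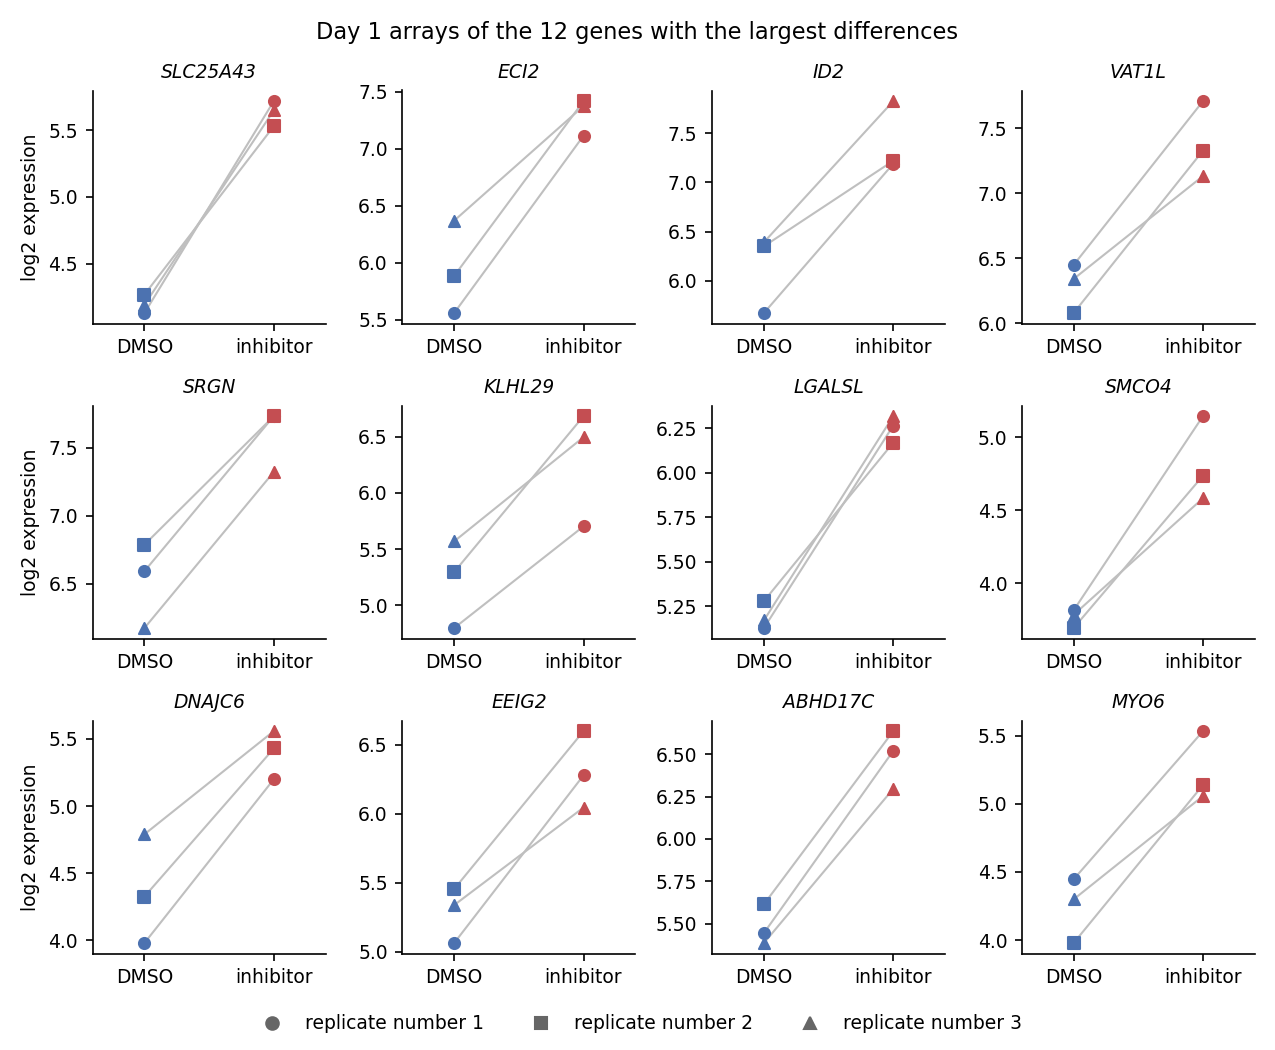
Log2 expression (vertical axis, a separate range in each panel that does not start at 0) of the 12 called genes with the largest differences in the 3 DMSO arrays (blue) and 3 inhibitor arrays (red) of day 1, with grey lines joining arrays of the same replicate number. In each panel the 3 red points lie above the 3 blue points, as in all 94 risers, with SLC25A43 and LGALSL showing the tightest groups.

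The 5′ flanks of the leading genes are shown because the choice of genes did not use sequence. The lines below hold the 250 bases before the annotated start of the 4 risers of largest difference, 5′ to 3′ on the strand of the gene, from RefSeq on GRCh38.p14, with CG dinucleotides in capitals. They are chrX:119399086-119399335 (plus strand) for SLC25A43, chr6:4135576-4135825 (minus strand) for ECI2, chr2:8681806-8682055 (plus strand) for ID2 and chr16:77788314-77788563 (plus strand) for VAT1L.
SLC25A43: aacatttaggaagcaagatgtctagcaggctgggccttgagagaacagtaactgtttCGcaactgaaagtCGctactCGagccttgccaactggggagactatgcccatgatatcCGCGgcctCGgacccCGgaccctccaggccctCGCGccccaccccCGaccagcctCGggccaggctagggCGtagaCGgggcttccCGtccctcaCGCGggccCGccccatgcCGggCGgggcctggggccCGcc
ECI2: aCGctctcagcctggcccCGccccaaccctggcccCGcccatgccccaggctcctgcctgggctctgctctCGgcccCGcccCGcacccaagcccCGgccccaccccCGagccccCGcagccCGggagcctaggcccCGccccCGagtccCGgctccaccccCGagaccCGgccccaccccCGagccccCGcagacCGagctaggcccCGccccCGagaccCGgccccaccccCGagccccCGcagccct
ID2: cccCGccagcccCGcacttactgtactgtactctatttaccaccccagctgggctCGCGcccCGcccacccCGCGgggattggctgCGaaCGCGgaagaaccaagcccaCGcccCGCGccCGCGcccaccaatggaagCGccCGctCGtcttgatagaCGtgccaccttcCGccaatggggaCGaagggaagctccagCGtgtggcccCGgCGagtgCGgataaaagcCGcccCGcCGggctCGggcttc
VAT1L: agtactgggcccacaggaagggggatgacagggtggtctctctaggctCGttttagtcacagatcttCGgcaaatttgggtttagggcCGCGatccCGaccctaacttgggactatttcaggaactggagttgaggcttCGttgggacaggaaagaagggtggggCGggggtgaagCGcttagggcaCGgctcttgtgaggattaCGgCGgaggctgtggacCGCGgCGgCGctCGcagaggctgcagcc
These stretches hold 20, 23, 29 and 16 CG dinucleotides for SLC25A43, ECI2, ID2 and VAT1L in that order.

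Promoters of the risers were rich in CG. In windows of 300 bases (250 before to 50 after the start), 77 of the 94 risers and 15382 of the 19775 genes had a sequence in the table. The risers held a median of 34 CG dinucleotides (quartiles 25 and 41), all genes 22 (9 and 32), and genes at or above the median DMSO level 26 (19 and 34). At least 10 CG were found in 74 of the 77 (96.1%), in 73.5% of all genes and in 90.0% of the brighter ones. The extremes were ABHD17C with 58, and GAS2L3 with 2 in the window of its annotated start. Median GC content was 72.3%, 63.0% and 65.3% in the same order. Genes not called at day 1 but called higher on a later day had lower medians: 26 for day 2, 25 for day 3 and 25 for day 6. These 3 sets can share genes. For genes lower at day 6 it was 25. A TATA box (TATAAA, either strand) was in 2 of 77 windows (2.6%) against 8.8% of all genes and 5.2% of brighter ones. The core of the interferon-stimulated response element was in 3 (3.9% against 2.9% and 2.7%), and the E-box CANNTG, whose reverse complement is the same motif, in 46 (59.7% against 64.3% and 59.7%). A motif match is only a string of letters, and these shares were not tested.

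**Figure D3:**
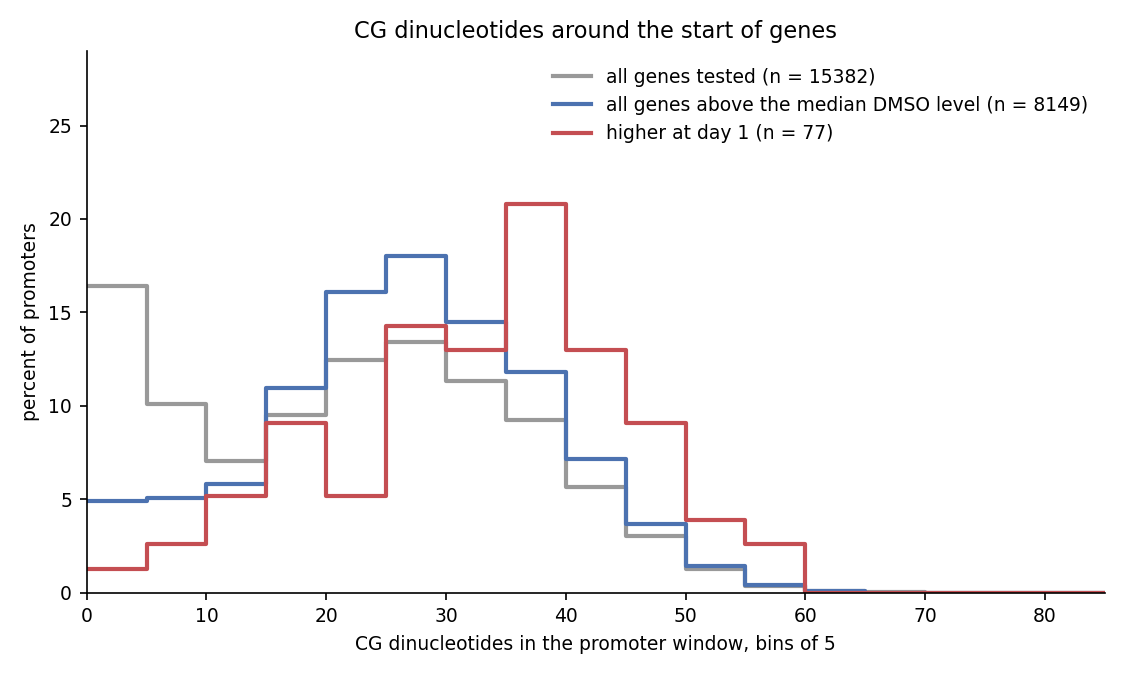
Percent of promoters (vertical axis) by the number of CG dinucleotides in a window of 300 bases, in bins of 5 (horizontal axis), for 77 risers of day 1 (red), 8149 genes at or above the median DMSO level (blue) and all 15382 genes with a sequence (grey). The red line peaks at 35 to 39 CG with 20.8% of the risers, and the grey line has 16.4% of genes at 0 to 4.

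SRGN, the proteoglycan that packs secretory granules, read 6.59, 6.79 and 6.17 in DMSO and 7.73, 7.73 and 7.32 with inhibitor, replicate 3 being the lowest of both groups (1.08 ± 0.21, adjusted p = 0.0144). DNAJC6, an auxilin that uncoats clathrin vesicles, rose by 1.03 ± 0.21 and FCHO2, which starts clathrin-coated pits, by 0.92 ± 0.16. DMXL2, a regulator of the vacuolar proton pump, read 5.52, 5.98 and 5.70 against 6.65, 6.91 and 6.42, with no overlap (0.93 ± 0.15, adjusted p = 0.0027). SPTBN1, the beta chain of spectrin, rose by 0.86 ± 0.12, the actin bundler PLS1 by 0.90 ± 0.18, and MYO6, a motor that walks toward the minus end of actin, by 1.00 ± 0.23. ARHGAP18, a GTPase activating protein, read 3.52, 3.87 and 3.49 against 4.53, 4.53 and 4.52, the inhibitor arrays being nearly equal (0.90 ± 0.18). DOCK9, which switches on CDC42, rose by 0.92 ± 0.19. DMXL2 and SPTBN1 were called in all 6 fits without 1 array and MYO6 in 0 of them (adjusted p 0.0665 to 0.274). Without inhibitor replicate 2 the calls of SRGN (adjusted p = 0.111), DNAJC6 (0.115), FCHO2 (0.0785), PLS1 (0.132), ARHGAP18 (0.0955) and DOCK9 (0.154) were lost, and all but that of FCHO2 were also lost without other arrays: SRGN without DMSO replicate 3 and inhibitor replicate 1 (0.0858 and 0.0803), DNAJC6 without DMSO replicates 1 and 2 and inhibitor replicate 3 (0.16, 0.0973 and 0.0956), ARHGAP18 without all but DMSO replicate 2 (0.054 to 0.102), and PLS1 and DOCK9 without all but inhibitor replicate 3 (0.0504 to 0.132 and 0.0504 to 0.154).

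Some genes of the cell surface rose as well. ITGAV, the alpha-V integrin chain, read 6.38, 6.10 and 6.08 against 7.06, 6.97 and 6.89, clear of each other (0.79 ± 0.11, adjusted p = 0.00082). CD58, the ligand of the T and NK cell receptor CD2, read 5.71, 5.75 and 6.04 against 6.57, 6.69 and 6.61, where the inhibitor arrays were close together (0.79 ± 0.10, adjusted p = 0.00077). LGALSL, a galectin-like protein, read 5.13, 5.28 and 5.17 against 6.27, 6.17 and 6.32, and rose by 1.06 ± 0.12, with an adjusted p of 6.99e-05 that it shared with SLC26A2 as the next lowest after SLC25A43. ITGAV, CD58, LGALSL and SLC26A2 were called in all 6 fits without 1 array. ITGAV was the 1 called of 29 integrins (median -0.04), CD58 of 55 adhesion and migration genes (0.00) and LGALSL of 10 galectins (-0.05). Of all genes, 0.475% were called higher. FZD7, a Wnt receptor, rose by 0.91 ± 0.15, and its call was lost without inhibitor replicate 2 (adjusted p = 0.056). TNFSF8, the ligand of CD30, read 5.19, 5.46 and 4.87 against 6.18, 6.12 and 5.74, replicate 3 being lowest in both groups (0.84 ± 0.18, adjusted p = 0.0309). It lost its call without DMSO replicates 1 and 3 (0.111 and 0.17) and inhibitor replicates 1 and 2 (0.153 and 0.194).

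IL6ST, the signal-transducing chain of the interleukin-6 receptor family, was among the further risers. It read 4.40, 4.61 and 4.36 in DMSO and 5.42, 5.30 and 4.95 with inhibitor, with groups that did not overlap (0.77 ± 0.10, adjusted p = 0.00082). Its partner kinase JAK1 read 8.74, 8.45 and 8.41 against 9.03, 8.91 and 8.91 (0.42 ± 0.09, adjusted p = 0.0309). JAK1 was the 1 called gene of 24 interferon ligands, receptors, STATs and IRFs (median 0.10), where 0.485% of all genes were called. Its call was kept without DMSO replicate 1 (0.0105) but lost without any other array (0.0634 to 0.182). Protein kinase C alpha, PRKCA, rose by 0.80 ± 0.15 and the calcium release channel ITPR1 by 0.74 ± 0.14. PRKCA lost its call without DMSO replicates 1 and 2 (0.0579 and 0.104) and inhibitor replicate 3 (0.0791), and ITPR1 without DMSO replicate 1 (0.0891) and inhibitor replicate 2 (0.132). RCAN3, a regulator of the calcium-dependent phosphatase calcineurin, read 6.32, 6.39 and 6.69 against 7.23, 7.42 and 7.56 (0.94 ± 0.13, adjusted p = 0.000904). PKIA, an inhibitor of protein kinase A, rose by 0.92 ± 0.14. The hedgehog receptor PTCH1 rose by 0.51 ± 0.11, a call that was lost without DMSO replicates 1 and 2 (adjusted p = 0.1 and 0.26) and inhibitor replicates 1 and 2 (0.158 and 0.174).

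The sulfate transporter SLC26A2 read 7.37, 7.46 and 7.44 against 8.02, 8.27 and 8.05, with DMSO arrays close to each other (0.69 ± 0.08). The choline transporter SLC44A1 rose by 0.69 ± 0.10 and SLC18B1, a vesicular polyamine transporter, by 0.68 ± 0.14 from the lowest DMSO level of the 94, 2.30. They were 3 of 297 solute carriers outside the SLC25 family (median -0.02), where 0.475% of all genes were called higher. B4GALT6, which makes lactosylceramide, rose by 0.98 ± 0.17, PXYLP1, a phosphatase of glycosaminoglycan synthesis, by 0.87 ± 0.18, GALNT12 and GALNT2, which start O-linked glycans, by 0.61 ± 0.10 and 0.58 ± 0.12, and GNPTAB, which tags lysosomal enzymes, by 0.59 ± 0.12. SCARB2, a lysosomal membrane protein that carries glucocerebrosidase, rose by 0.78 ± 0.13 and was called in all 6 fits without 1 array, as was SLC44A1. Without inhibitor replicate 2 the calls of SLC18B1 (0.181), PXYLP1 (0.193), GALNT12 (0.0638), GALNT2 (0.133) and GNPTAB (0.206) were lost, and that of B4GALT6 was lost without DMSO replicate 2 and inhibitor replicate 1 (0.0653 and 0.058). SLC18B1 and PXYLP1 also lost theirs without DMSO replicates 1 and 3 and inhibitor replicate 3 (0.0676 to 0.157 and 0.0637 to 0.194), GALNT2 without DMSO replicates 1 and 2 and inhibitor replicate 3 (0.0771 to 0.203), and GNPTAB without any array but inhibitor replicate 3 (0.0776 to 0.206).

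ASB13, which is the 1 called member of both the 25 ASB and SOCS box adaptors (median 0.01) and the 31 germinal centre genes (median 0.06), read 6.27, 6.48 and 6.56 against 7.17, 7.41 and 7.21, well apart (0.83 ± 0.11, adjusted p = 0.000765). Among all genes, 0.475% were called higher. Of 34 KLHL adaptors of cullin 3 ligases, KLHL29 rose by 1.07 ± 0.23 and KLHL13 by 0.88 ± 0.19 (list median 0.01). Both calls were lost without DMSO replicate 1 (adjusted p = 0.223 and 0.16), DMSO replicate 2 (0.0973 and 0.122), inhibitor replicate 2 (0.26 and 0.198) and inhibitor replicate 3 (0.141 and 0.179).

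The Polycomb genes themselves were nearly level. EZH2 read 10.33, 10.33 and 9.97 in DMSO and 10.43, 10.33 and 10.01 with inhibitor, which overlap (0.05 ± 0.12). EED, SUZ12 and RBBP7 differed by -0.01, -0.01 and -0.04, and EZH1 by 0.09 ± 0.12. Of 13 PRC2 subunits (median 0.01) 1 was called, where 0.485% of all genes were called. This was EPOP, which links PRC2 to elongin B and C. It read 7.24, 7.28 and 7.41 against 7.69, 7.74 and 7.67, a small difference between tight groups (0.39 ± 0.08, adjusted p = 0.0256) that kept its call without DMSO replicate 3 (0.0286) and lost it without any other array (0.0577 to 0.164). JARID2, which guides PRC2 to chromatin, read 6.95, 6.81 and 6.80 against 7.24, 7.25 and 7.30 (0.41 ± 0.10, adjusted p = 0.0916) and was called with the replicate block (adjusted p = 0.0365). Of 16 PRC1 subunits (median 0.07) RYBP, which defines variant PRC1 complexes, was called. It read 8.22, 8.27 and 8.21 against 8.87, 8.85 and 8.58 (0.54 ± 0.09, adjusted p = 0.00473), and 2 of its 3 other probe sets were higher too (0.33 ± 0.09 and 0.27 ± 0.10, unadjusted p = 0.00163 and 0.0161).

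Developmental regulators are classical Polycomb targets. Of 28 HOX genes 1 was called, where 0.475% of all genes were called higher: HOXB3 read 5.28, 4.92 and 5.32 against 5.82, 5.97 and 5.52, with inhibitor replicate 3 close to the DMSO arrays (0.60 ± 0.13, adjusted p = 0.0479). Its call was lost without DMSO replicates 1 and 2 (0.0954 and 0.319) and inhibitor replicates 1 and 2 (0.156 and 0.332). The median HOX difference was 0.03. Of 94 other developmental transcription factors 0 were called by limma, with 8 higher and 1 lower at an unadjusted p under 0.05 (3.79% and 2.27% of all genes) and a median difference of 0.00. The replicate block called 4 of them higher and 0 lower (1.23% and 0.0152% of all genes). Of these, FOXD1 differed by 0.69 ± 0.16 (adjusted p = 0.0571, and 0.0211 with the block) and SOX9, at 8.13, 8.52 and 7.58 against 8.87, 9.38 and 8.81, by 0.94 ± 0.23 (0.0746 and 0.00973). In SOX9 replicate 3 was the lowest and replicate 2 the highest of both groups.

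Interferon-stimulated genes, which encode antiviral effectors, leaned upward at day 1 without a call. Limma called 0 of 54 (5 at an unadjusted p under 0.05, 0 with the replicate block), yet 48 of the 54 had a difference above 0, against 46.1% of all genes, and the median was 0.26. The size of the difference was not the same for each replicate number, which was not tested. The median was 0.04 between the arrays numbered 1 (34 of 54 above 0), 0.30 between those numbered 2 (46) and 0.39 between those numbered 3 (48). The level of the list also differed between numbers in DMSO itself, with means of 7.63, 7.89 and 8.13, and of 7.69, 8.17 and 8.52 with inhibitor. IFIT2 read 6.03, 6.23 and 6.24 in DMSO and 6.12, 6.75 and 7.48 with inhibitor (0.61 ± 0.27, adjusted p = 0.765), and OASL 5.60, 5.74 and 6.61 against 6.34, 6.84 and 7.62 (0.95 ± 0.38, adjusted p = 0.624). The double-stranded RNA sensor IFIH1, from a separate list of 16 RNA and DNA sensors of which limma called 0 (1 higher and 1 lower at an unadjusted p under 0.05), read 3.88, 3.60 and 3.68 against 4.41, 4.93 and 4.91, clear of overlap (1.03 ± 0.29, adjusted p = 0.163, and 0.0615 with the block). At day 2 limma called 30 of the 54 interferon-stimulated genes higher (4.39% of all genes were called, 3.57% higher and 0.824% lower) with a median of 0.94, and at day 3 it called 48 higher (16.3% of all genes were called, 8.64% higher and 7.65% lower) with a median of 1.5.

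**Figure D4:**
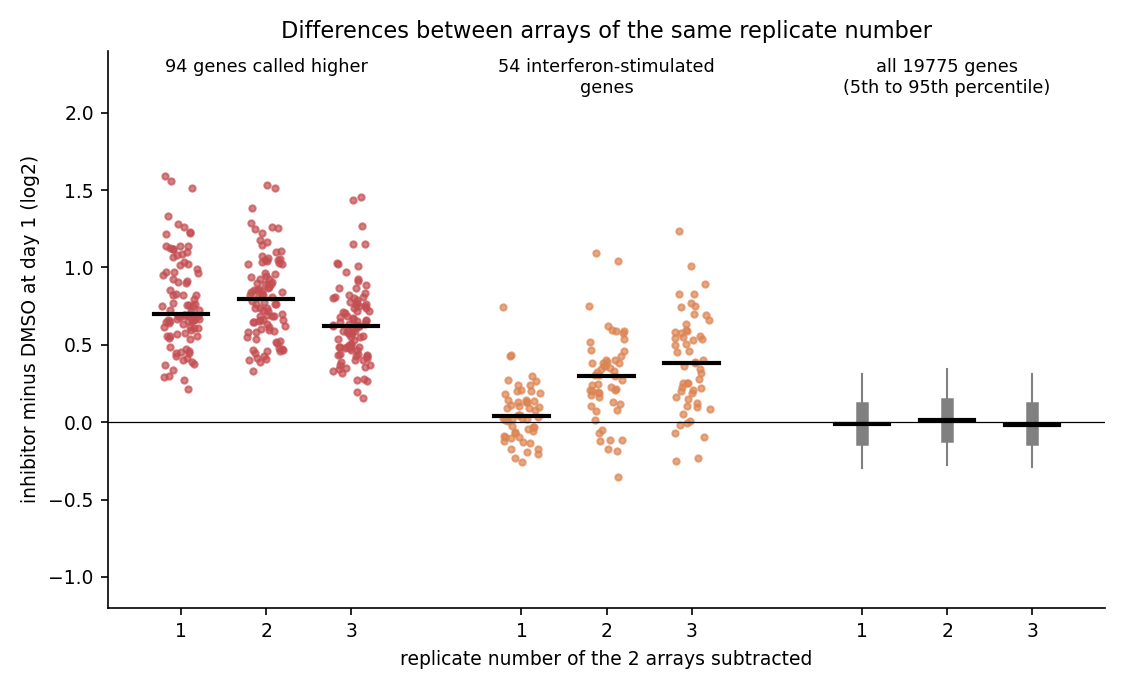
Inhibitor minus DMSO at day 1 (log2, vertical axis) between arrays of the same replicate number (1, 2 and 3, horizontal axis) for each of the 94 genes called higher and each of 54 interferon-stimulated genes, with black bars at the medians, and for all 19775 genes as the middle 50% (thick line) and 5th to 95th percentile (thin line). The medians are 0.70, 0.80 and 0.62 for the risers, which were chosen for being higher, 0.04, 0.30 and 0.39 for the interferon-stimulated genes, and -0.01, 0.01 and -0.02 for all genes.

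Lists of cell cycle, B lineage, plasma cell and antigen presentation genes held no called member, where 0.485% of all genes were called, a share that comes to under 1 gene in a list of these sizes. Limma called 0 of 39 G1/S genes (median -0.04), 0 of 48 G2/M genes (-0.02) and 0 of 31 MYC target and ribosome biogenesis genes (-0.02), with 0 members of these 3 lists at an unadjusted p under 0.05. All 39 G1/S and all 48 G2/M genes were called lower at day 6, as were 26.9% of all genes (45.4% were called in either direction). Of 31 B lineage genes limma called 0 (median 0.00, 1 lower at an unadjusted p under 0.05), and of 21 plasma cell genes 0 (median 0.02, 1 lower). For MHC class I it called 0 of 18 (median 0.07, 17 above 0, 1 higher at an unadjusted p under 0.05), and for class II 0 of 16 (median 0.04, 1 higher), where HLA-DOA, at 0.40 ± 0.10, was called with the block (adjusted p = 0.0764 without and 0.00355 with it). TGF-beta and BMP pathway genes had 0 of 35 called (median 0.07, 6 higher and 1 lower at an unadjusted p under 0.05, against 3.79% and 2.27% of all genes) and 4 called higher with the block (1.23% of all genes): ACVR2B (0.55 ± 0.13), SMURF2 (0.34 ± 0.08), TGFBR1 (0.54 ± 0.15) and ACVR1B (0.34 ± 0.10). NOTCH2 was the 1 called of 25 Notch pathway genes (0.68 ± 0.16, adjusted p = 0.0495, list median 0.00), and that call was lost without any 1 array (0.0876 to 0.306). Of all 49 lists, which held 7 to 466 measured genes, 30 held 0 called members and 19 held at least 1 higher, where 0.485% of all genes were called.

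The 2 genes that fell were dim. WNT9B, a Wnt ligand, read 4.40, 4.11 and 4.24 in DMSO and 3.87, 3.83 and 3.97 with inhibitor, and fell by 0.36 ± 0.08 (adjusted p = 0.0323). LINC00598, a long noncoding RNA, read 4.79, 4.61 and 4.96 against 4.19, 4.32 and 4.15, and fell by 0.56 ± 0.12 (adjusted p = 0.0309). The other probe sets of LINC00598 differed by -0.01 and -0.05 (unadjusted p = 0.959 and 0.655 by limma), so that its fall holds for its brightest probe set. The groups of both genes did not overlap, but came close to each other. WNT9B lost its call without DMSO replicates 1 and 3 (0.23 and 0.0876) and inhibitor replicates 1 and 2 (0.121 and 0.209), and LINC00598 without any array but DMSO replicate 2 (0.0791 to 0.167). At days 2, 3 and 6 neither was called: WNT9B differed by -0.26, -0.05 and -0.06 and LINC00598 by 0.06, -0.06 and -0.20.

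Other probe sets of the same genes did not all differ in the same way. Of the 94 risers, 66 had 166 other probe sets, of which 40 were higher and 4 lower at an unadjusted p under 0.05. At least 1 other probe set was higher in 31 of the 66 genes and none in 35. The others that were higher were brighter (median level 5.52) than those that were not (4.30). CD58 had 2 of 4 other probe sets higher, by 0.74 ± 0.13 and 0.64 ± 0.12, LGALSL 1 of 1, by 0.64 ± 0.13, and SRGN 1 of 2, by 0.89 ± 0.17. For AFF1, B4GALT6, DNAJC6, KLHL29 and MYO6 none was higher, and the other probe sets of AFF1 differed by -0.01 and -0.17. None was higher for TNFSF8 (-0.06 and -0.07), HOXB3 (-0.06) and IL6ST (-0.10 to 0.21) either, so that these rises hold for the brightest probe set. The same limit holds for PRKCA (-0.08 to 0.13), PTCH1 (-0.10 to 0.11) and DOCK9 (-0.19 to 0.05). It also holds for AGO4, CCSAP, CYTH3, DMXL2, FCHO2, GNPTAB, PXYLP1 and YPEL2, among others of the 35. All 4 lower probe sets belonged to SPTBN1, which has 10 others (-0.43 to 0.57), so that its rise holds for its brightest probe set (0.86 ± 0.12) while the mean of its 11 differed by 0.04. With the mean of all probe sets of a gene, 44 of the 96 genes were called.

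Near the threshold, values inside and outside it were alike. Just inside, at an adjusted p of 0.0495, were CA13 (0.67 ± 0.15), MYO6 (1.00 ± 0.23), NIPSNAP3A (0.59 ± 0.13) and NPL (0.84 ± 0.19). CA13 kept its call without DMSO replicate 3 alone, as did NIPSNAP3A and NPL, and lost it without any other array (0.0823 to 0.311, 0.07 to 0.318 and 0.069 to 0.318), and MYO6 kept it in none of the 6 fits (0.0665 to 0.274). Just outside were TCEAL1 (0.32 ± 0.07, adjusted p = 0.0507), RAB29 (0.67 ± 0.15, 0.0521), CTNNA1 (0.50 ± 0.12, 0.0521) and INPP4A (0.60 ± 0.14, 0.0524). A further 150 genes, 149 of them higher, were called with the replicate block alone. The largest of these was SERPINE2, a protease inhibitor, which read 4.70, 5.51 and 3.68 in DMSO and 6.00, 7.12 and 4.85 with inhibitor. Its groups overlap and its order of replicates is the same in both (1.35 ± 0.64, adjusted p = 0.817, and 0.022 with the block). CLGN, a chaperone of the endoplasmic reticulum, read 3.34, 3.39 and 4.48 against 4.78, 4.66 and 5.55, replicate 3 being the highest of both groups (1.26 ± 0.33, 0.115 and 0.000159). MAP3K20, ELK3, FAM241A, KLHL14, PALLD and NREP followed, with differences of 1.11, 1.05, 1.02, 1.00, 0.96 and 0.94.

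Most of the risers were higher again in the arrays of later days, which share none of the 6 arrays of day 1. Of the 94, 91 were called higher at day 2 (96.8%, against 3.57% of all genes), 88 at day 3 (93.6% against 8.64%) and 85 at day 6 (90.4% against 18.5%), and 83 at all 3 days. They made up 12.89% of the genes higher at day 2, 5.15% at day 3 and 2.33% at day 6. Their median difference was 0.69 at day 1, 0.94 at day 2, 1.20 at day 3 and 1.47 at day 6, while that of all genes went from -0.01 to -0.04, -0.04 and -0.11, and the number at least 2-fold higher went from 12 to 40, 57 and 65. Between days 1 and 2 the difference of effects was called by limma in 0 of all genes (881 at an unadjusted p under 0.05, 4.46%). Between days 1 and 3 the effect grew in 26 of the 94 and shrank in 0 (2.61% of all genes, 1.6% upward and 1.01% downward), and between days 1 and 6 it grew in 60 and shrank in 9 (26.7% of all genes, 12.3% upward and 14.4% downward, and 36.2% at an unadjusted p under 0.05). The fit shares 1 estimate of spread between days, and the day 1 arrays also chose the genes.

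The steepest later courses belonged to TNFSF8, ID2 and AFF1. TNFSF8 went from 0.84 at day 1 to 1.58, 2.01 and 4.0 ± 0.18 at days 2, 3 and 6, ID2 from 1.27 to 2.27, 2.53 and 4.32 ± 0.26, and AFF1 from 0.95 to 1.09, 1.74 and 3.93 ± 0.19. CYTH3, an exchange factor of ARF GTPases, was among the smallest rises of day 1 (0.41 ± 0.09) and reached 2.62 ± 0.09. Its day 1 call was kept without inhibitor replicate 1 (0.0384) and lost without any other array (0.0773 to 0.235). SLC25A43 and ECI2 changed less after day 2: they stood at 2.21 and 2.28 at day 2 and at 2.45 and 2.54 at day 6. The largest day 6 minus day 1 difference was that of TNFSF8, 3.16 ± 0.25 (adjusted p = 8.7e-09).

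A few early risers ended lower than DMSO. SMCO4, a small membrane protein, read 3.81, 3.69 and 3.78 in DMSO and 5.15, 4.74 and 4.58 with inhibitor at day 1, well apart, and its difference went from 1.06 to 0.81, 0.31 and -0.82 ± 0.21 (adjusted p = 0.00321 at day 6). Its day 1 call was kept without inhibitor replicate 3 (0.023) and lost without any other array (0.0567 to 0.129). GPHN, a scaffold that also makes molybdenum cofactor, went from 0.85 to 0.80, 0.47 and -0.54, with a day 1 call that was lost without DMSO replicate 2 (0.0776) and inhibitor replicates 1 and 2 (0.0888 and 0.0638), and NOTCH2 from 0.68 to 0.58, 0.33 and -0.40. EPOP (0.39 to -0.48) and KHDRBS3, an RNA-binding protein (0.44 to -0.31), were called in neither direction at days 2 and 3 and lower at day 6. These 5 were the risers called lower at day 6, against 26.9% of all genes. CCSAP, SLAIN1, MAP3K21 and LRP11 were called in neither direction at day 6, with differences of -0.12, 0.11, 0.14 and 0.18. CD58 remained called at day 6, at 0.32 ± 0.10, below its day 1 value (difference of effects -0.47 ± 0.15, adjusted p = 0.0204).

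**Figure D5:**
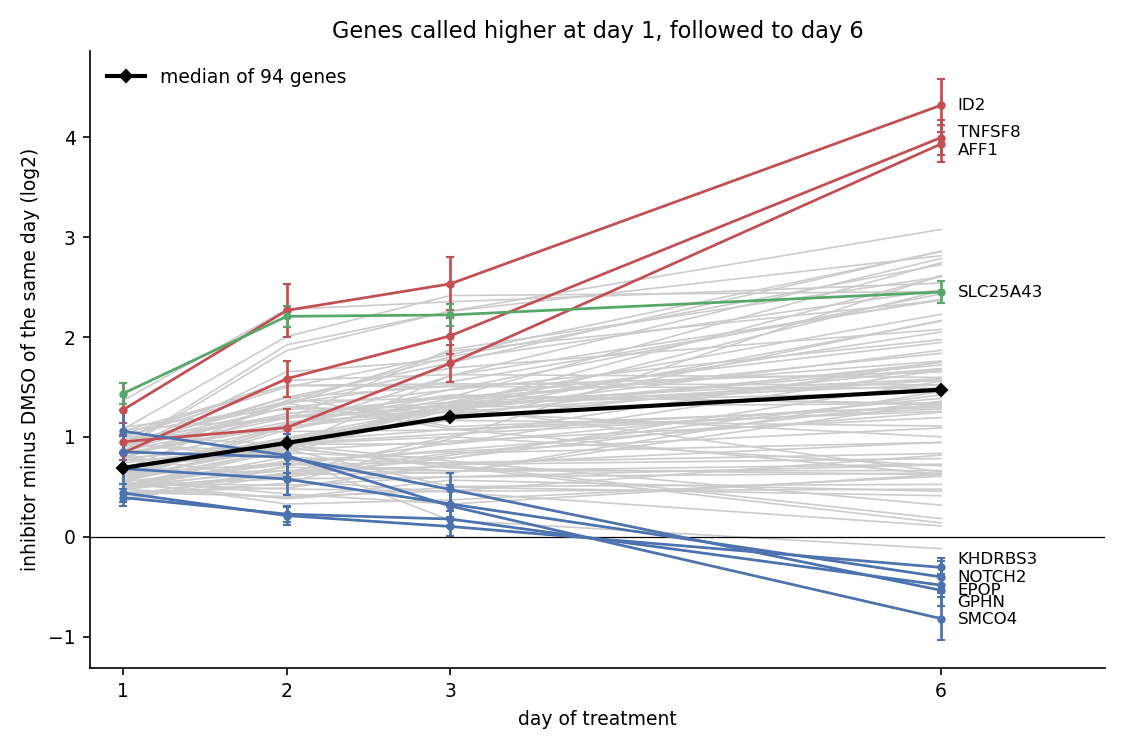
Inhibitor minus DMSO of the same day (log2, vertical axis) at days 1, 2, 3 and 6 (horizontal axis) for the 94 genes called higher at day 1, with the median in black and named genes in colour with bars of 1 SE. The median goes from 0.69 to 1.47, ID2, TNFSF8 and AFF1 (red) reach 4.32, 4.0 and 3.93, SLC25A43 (green) has most of its 2.45 by day 2, and KHDRBS3, NOTCH2, EPOP, GPHN and SMCO4 (blue) cross 0 between days 3 and 6.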

How the data were processed

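Trizol-extracted RNA of KARPAS-422 cells was biotin-labelled and hybridised to Affymetrix U133 Plus 2 arrays. The deposited log2 values of 54613 probe sets are, per the submitters' processing notes, RMA summaries that the authors made in R 2.10.1. Their log base is not stated there and was read as log2 from the range of 1.72 to 14.33. RMA gives no detection calls and is known to compress differences of dim probe sets.

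Gene names came from the platform's table: 41091 probe sets have 1 gene symbol, 1801 several and 11721 none, and the last 2 kinds were left out. Symbols were updated by Entrez ID for 41037. Of 19775 genes 10523 have more than 1 probe set, and the one with the highest mean over 24 arrays was used. For want of a match, 70 list members were not analysed here.

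Limma 3.58.1 in R 4.3.3 (with statmod 1.5.0 and data.table in version 1.17.8) fitted 1 coefficient for each of 8 groups over all 24 arrays, with 16 residual and 5.22 prior degrees of freedom. P-values are 2-sided, with Benjamini-Hochberg adjustment over every gene tested in that contrast. The scripts were tested on simulated data.

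Replicate numbers from the labels were checked for pairing. After removal of group means, the inhibitor and DMSO arrays of day 1 correlated at 0.43, 0.23 and 0.55 for numbers 1, 2 and 3, so the numbers pair these arrays, and blocked counts are given beside the others.

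Alternatives were the 6 arrays of day 1 alone, both blocks, no dim genes, the mean of probe sets, other normalizations, spread models and array weights, each array left out, and all 8 arrays numbered 3 left out, the last chosen after seeing the data. The comparison, the 49 gene lists and the naming rule were chosen with earlier results of these data known. The rule took the 30 largest rises and all falls without overlap between groups, PRC2 subunits, leading members of lists, extremes of the later course, disagreeing probe sets, genes next to the threshold, cell type markers and genes called with the block alone. Genes outside it were named after their values were seen: IL6ST, PRKCA, ITPR1, PTCH1, SDCBP, SCARB2, GALNT12, GALNT2, GNPTAB, GAS2L3, ITGB8-AS1, SLAIN1, MAP3K21, LRP11, TGFBR1, ACVR1B, IFIT2 and DCN. Promoter sequences are RefSeq's on GRCh38.p14, matched by symbol.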

Additional observations from a re-analysis of the deposited data

Results flagged for a closer look

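The effect of the inhibitor differed between day 6 and day 1, by the test of that difference in limma, in 70 of the 96 genes called at day 1 (60 risers with a larger effect, 9 with a smaller one, and WNT9B). Among the genes named, the day 6 minus day 1 difference of effects was 3.16 for TNFSF8, 3.05 for ID2, 2.98 for AFF1, 2.20 for CYTH3, 2.19 for KLHL13 and 2.06 for CA13. It was -1.88 for SMCO4, -1.39 for GPHN, -1.08 for NOTCH2, -1.04 for CCSAP, -0.88 for EPOP and -0.75 for KHDRBS3.

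A few calls also fell on probe sets outside the comparison of genes. In a fit over all 54613 probe sets, limma called 104 at day 1, and 5 of these were among the 13522 probe sets without a single gene symbol (1 with several symbols and 4 with none). This is a smaller share than that over all probe sets. All 5 were higher with inhibitor, by 0.60 to 0.92. The limma adjusted p was 0.00104 for the probe set with several symbols and 0.0273 to 0.0465 for the others. Groups of 3 arrays are too small for a test of single outlying arrays, and none was made.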

How the results depend on the processing

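The number of genes called at day 1 (96, with 94 higher and 2 lower) depended on the fit. It was 46, all higher and 0 lower, with the 6 arrays of day 1 alone, 246 (243 higher) with the replicate block, 301 (294 higher and 7 lower) when blocked inside each day, 160 (155 and 5) with array weights and 53 (52 and 1) with the mean of probe sets. Lower genes numbered 0 without the dimmest 40% of genes, and 1 with trend and robust estimation or without all arrays numbered 3. Of the genes called in each fit, those called in the same direction at days 2, 3 and 6, and those whose effect differed at day 6, numbered 230, 229, 222 and 184 with the replicate block, 284, 281, 265 and 230 with the block within days, 146, 142, 137 and 111 with array weights, and 51, 50, 46 and 37 with the mean of probe sets. Leaving out 1 array of day 1 gave 32 to 87 called, 32 to 87 higher and 0 to 2 lower, and 32 to 86, 32 to 83, 32 to 81 and 22 to 59 for those followed to days 2, 3 and 6 and for those that differed at day 6. Quantile normalization again (83 called), subtracting array medians (87) and leaving out the arrays numbered 3 (68) kept the total within 1.5 times. The causes were not tested. Over the 24 arrays, those of the same number correlated at a median of 0.24 and those of different numbers at -0.13, and 21 of 24 correlated best with their own number. For named genes the replicate block added 32 calls and lost 0. The naming rule took some genes because only the block called them, so part of that gain was fixed by the rule. No called difference changed sign in a setting where it was tested. For the blocks and the fits without 1 array of day 1 this was fixed in advance, since the groups of all called genes were separated. The precision is limited by 3 arrays per group, by 1 cell line and by the lack of detection calls for dim probe sets.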
